A study of Mus musculus with 7 samples.

Results

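The growth hormone receptor axis was examined in tumour cells from mouse colon adenomas with and without the RNA-binding protein gene Mex3a. It was taken as 10 genes: the receptors Ghr, Prlr and Igf1r, the kinase Jak2, the transcription factors Stat5a and Stat5b, the feedback inhibitors Socs2 and Cish, and the docking proteins Irs1 and Irs2. The genes were chosen by their place in the pathway with earlier results of the KO and WT comparison on these arrays known, so that KO and WT levels of the members are given as a description with no test. Each member was read from every probe set that the platform annotation pairs with that 1 symbol. Of the 10 genes, 8 had probe sets, 19 in all, out of 17097 genes with 28898 such probe sets on the array. All 8 lay above the level under which the lowest 25% of genes were left out, and they were among 12822 genes tested. No probe set was named for Prlr or Irs2, alone or with another gene, so no level is reported for either.

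The study compared adenoma cells of 2 genotypes on 7 Affymetrix arrays. The 4 WT arrays came from mice with the Mex3a alleles Tom/+, and the 3 KO arrays from mice with a Tomato allele opposite a floxed one (tom/flox). All mice carried Villin CreERT2, a Cre that tamoxifen activates in intestinal epithelial cells, and APC fl/+, a single floxed copy of the tumour suppressor Apc. The WT arrays are therefore also from Apc-targeted adenomas, and they hold 1 Tomato allele at Mex3a. They were given 4 shots of tamoxifen and then 2% dextran sulfate sodium (DSS), which injures the colon lining, for 5 days, and adenomas were taken 2 months later, counted from the end of DSS in the design text and from induction in the growth protocol. Cells positive for the epithelial protein Epcam and for Tomato, which reports the Mex3a promoter, were sorted, and RNA of 2000 cells was amplified over 24 cycles. The sources used here give neither age nor sex. They do not say that each array is a separate animal either. Every p-value therefore reflects only variation among these 7 samples, which may be partly technical.

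The label check and the makeup of the sorts can be given briefly. Mex3a read 7.01 to 7.50 in WT and 6.07 to 6.29 in KO on the log2 scale. Scan batch 1 held 2 WT arrays and 1 KO array and scan batch 2 held 2 of each. All 12 epithelial markers were above the level filter, and their summed linear level was 25721 to 28371 in WT and 24939 to 28427 in KO. Of 12 leukocyte markers 9 were above it, and the summed level of all 12 was higher in every KO array, at 6057 to 6683 against 3872 to 5746. The lysozyme gene Lyz2 made up 86.2% of that sum, and without it the sums overlapped, at 683 to 807 in KO and 704 to 803 in WT. The leukocyte genes Ptprc, Cd3e and Itgam lay below the filter. The other 9 lay above it, among them Csf1r (6.78 to 7.08 over all arrays) and Cd79a (6.58 to 6.89). Fibroblast sums over all 10 markers overlapped, at 606 to 1236 in WT and 589 to 1337 in KO, with 5 of the 10 above the filter. Endothelial sums over all 8 markers were 441 to 472 in WT and 416 to 444 in KO, with 5 of the 8 above the filter. The 3 adipocyte markers named on the array were all below it. The Y-linked gene Eif2s3y read 8.92 in WT replicate 2 and 9.02 in KO replicate 3, and 4.17 to 4.29 in the other arrays. Xist, a transcript of female cells, read 6.89 and 5.05 in those 2 arrays and 11.08 to 11.45 in the others. By these genes each genotype held arrays of both sexes, and so cells of more than 1 animal. The part of these measures in the results that follow was not tested, except where a value is given beside a result.

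Growth hormone binds a pair of receptor chains that hold the kinase Jak2. Jak2 then phosphorylates the receptor and the transcription factors Stat5a and Stat5b, which enter the nucleus and switch on targets such as Socs2 and Cish, 2 inhibitors that feed back on the receptor. In the liver this route drives the making of Igf1, which acts on its own receptor, Igf1r, and on the docking proteins Irs1 and Irs2. Growth hormone and IGF signalling are known to promote growth of the intestinal epithelium, and Socs2 is known to restrain it.

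Promoter windows were read from a table of RefSeq sequences (GRCm38.p6), in which 9 of the 10 members were matched, all but Socs2. Each window runs from 250 bases before to 50 bases after an annotated start. The STAT binding motif TTCNNNGAA, which reads the same on both strands as a pattern and was counted with overlaps allowed, was found in 8.3% of 32851 windows in the table. Among the 14 windows of members it occurred in 2, the window of Cish and 1 of the 3 windows of Prlr. Cish, chr9:107296409-107296708 on the plus strand, held it 2 times, as TTCCTGGAA beginning at the annotated start and as TTCTTGGAA beginning 11 bases after it. Of all windows, 0.457% held it at least 2 times. The windows of Ghr, chr15:3583303-3583602 on the minus strand, and Jak2, chr19:29251553-29251852 on the plus strand, held none. These 3 are printed because Cish is the member whose window holds the motif more than once, and Ghr and Jak2 are the members whose KO and WT arrays did not overlap. Capitals mark the motif.
Cish: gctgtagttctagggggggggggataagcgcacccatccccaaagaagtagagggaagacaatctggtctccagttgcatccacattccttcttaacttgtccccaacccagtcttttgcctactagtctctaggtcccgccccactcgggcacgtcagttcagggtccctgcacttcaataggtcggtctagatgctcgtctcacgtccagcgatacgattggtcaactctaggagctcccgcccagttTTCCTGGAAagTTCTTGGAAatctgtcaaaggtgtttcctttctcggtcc
Ghr: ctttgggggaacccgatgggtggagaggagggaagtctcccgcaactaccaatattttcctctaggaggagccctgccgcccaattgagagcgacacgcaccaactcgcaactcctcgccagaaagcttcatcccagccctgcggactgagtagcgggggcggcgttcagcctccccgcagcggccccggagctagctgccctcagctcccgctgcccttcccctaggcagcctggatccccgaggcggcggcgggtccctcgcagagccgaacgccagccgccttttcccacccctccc
Jak2: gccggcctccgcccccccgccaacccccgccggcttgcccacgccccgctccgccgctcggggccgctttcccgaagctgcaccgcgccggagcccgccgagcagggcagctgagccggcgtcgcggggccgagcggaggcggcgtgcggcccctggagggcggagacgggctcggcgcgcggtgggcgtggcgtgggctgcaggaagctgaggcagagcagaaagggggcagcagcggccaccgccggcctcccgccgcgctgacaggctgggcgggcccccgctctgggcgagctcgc
The window of Jak2 held 44 CpG pairs, that of Ghr 23 and that of Cish 11, against a median of 7 over all windows. A second annotated start of Ghr, chr15:3581793-3582092, had 8. A match is a run of letters and is not evidence of binding.

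Ghr, the receptor itself, stood higher in KO. On the brightest of its 3 probe sets (1417962_PM_s_at) the log2 level was 7.44, 7.30, 7.25 and 7.30 in WT replicates 1 to 4 and 8.12, 7.93 and 7.83 in KO replicates 1 to 3. Every KO array lay above every WT array, and the gap between the groups was wider than the spread within either. WT averaged 7.32 ± 0.08 (SD, n = 4) while KO averaged 7.96 ± 0.15 (SD, n = 3), and the difference in a linear model with scan batch was 0.67 (SE 0.09), or 1.59-fold. In sorted bulk cells a larger share of cells with the transcript and more transcript per cell cannot be told apart. The difference was 0.75 within scan batch 1 and 0.61 within scan batch 2.

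The other probe sets of Ghr showed a smaller difference in the same direction. On 1451501_PM_a_at the levels were 7.06, 7.12, 7.32 and 7.04 for WT against 7.26, 7.41 and 7.50 for KO, a difference of 0.23 (SE 0.10). WT replicate 3 lay inside the KO range. On 1451871_PM_a_at the difference was 0.15 (SE 0.09), and KO replicate 3, at 6.19, lay within the WT range of 6.06 to 6.26. The mean of the 3 probe sets differed by 0.35 (SE 0.06), so the size of the Ghr difference rests on the brightest one.

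Jak2, the kinase bound to the receptor, had a difference of like size on 1 of its 2 probe sets. On 1421066_PM_at the levels were 7.51, 7.33, 6.90 and 6.99 for WT against 7.94, 7.72 and 7.56 for KO. The groups did not overlap, although KO replicate 3 was only just above WT replicate 1, and WT spread widely, at 7.18 ± 0.29 (SD, n = 4) against 7.74 ± 0.19 (SD, n = 3) in KO. The difference was 0.62 (SE 0.09), or 1.54-fold, and it was 0.52 in scan batch 1 and 0.69 in scan batch 2. On 1421065_PM_at the arrays overlapped, at 6.57 to 6.68 in WT and 6.65, 6.90 and 6.61 in KO, with a difference of 0.08 (SE 0.10). That probe set did not show the pattern of the brighter one, and the mean of both differed by 0.35 (SE 0.08).

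**Figure D1:**
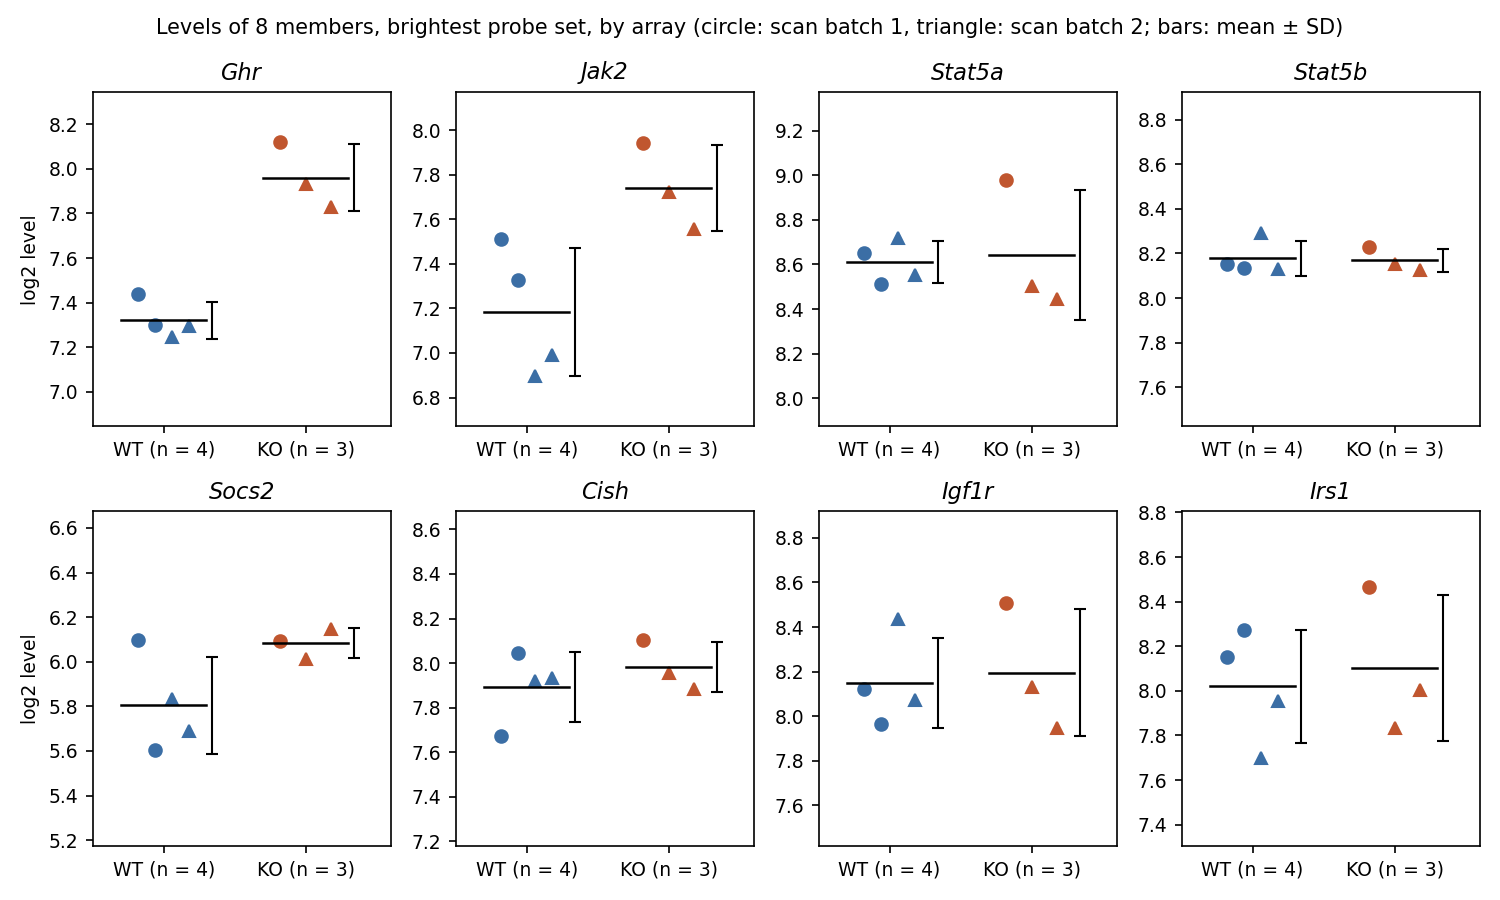
Log2 level of the brightest probe set of each of the 8 members with probe sets, by array, for WT (n = 4) and KO (n = 3), with circles for scan batch 1, triangles for scan batch 2 and bars for mean ± SD; the range shown is equally tall in every panel. The KO arrays of Ghr (7.83 to 8.12) and Jak2 (7.56 to 7.94) sit above all their WT arrays, while the other 6 genes overlap.

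The transcription factors had mean differences near 0 on their brightest probe sets. Stat5a, on its brightest probe set (1450259_PM_a_at), read 8.65, 8.51, 8.72 and 8.55 in WT and 8.98, 8.50 and 8.45 in KO, with a difference of 0.06 (SE 0.13). KO replicate 1 was the highest of all arrays and the other KO arrays were the lowest. Within scan batch 1 the KO array stood 0.40 above the WT mean, and within scan batch 2 the KO arrays stood below both WT arrays, with a difference of -0.16. The other Stat5a probe set showed the same split, with KO replicate 1 at 8.63 and the other KO arrays at 7.77 each, and differences of 0.60 and -0.41 in the batches. Stat5b, the closely related gene beside Stat5a on chromosome 11, varied least among the brightest probe sets of the members. It read 8.13 to 8.29 in WT and 8.13 to 8.23 in KO, and its difference was -0.01 (SE 0.09). Centred on each array's median, that difference changed sign at a size near 0. The other Stat5b probe set (1422103_PM_a_at) read only 4.7 to 5.1, under the filter level of 5.28. Its arrays overlapped, with a difference of 0.17 (SE 0.08), at 0.05 in scan batch 1 and 0.25 in scan batch 2. Whether probes for one of these closely related genes read the other was not examined, so the split between Stat5a and Stat5b is uncertain.

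The arrays of both feedback inhibitors overlapped between the groups. Socs2, which binds the phosphorylated receptor, read 6.10, 5.60, 5.83 and 5.69 in WT and 6.09, 6.01 and 6.15 in KO on its brightest probe set (1449109_PM_at), with a difference of 0.29 (SE 0.12). WT replicate 1 lay inside the KO range and the other WT arrays lay below it. These levels were near the array medians of 5.955 to 5.995 over all probe sets. The remaining 3 probe sets of Socs2 were dimmer and had differences of 0.20 (SE 0.19), -0.02 (SE 0.07) and 0.07 (SE 0.06), all with overlapping arrays. Cish, whose window carries the 2 motifs printed above, read 7.67, 8.05, 7.92 and 7.93 in WT and 8.10, 7.95 and 7.89 in KO on its 1 probe set. The groups overlapped throughout, and the difference was 0.09 (SE 0.11), with 0.24 in scan batch 1 and -0.01 in scan batch 2.

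The IGF branch gave no single direction. Igf1r, the receptor of Igf1, differed by 0.06 (SE 0.16) on its brightest probe set (1452108_PM_at), with WT arrays at 8.12, 7.96, 8.44 and 8.07 and KO arrays at 8.51, 8.13 and 7.95. The difference was 0.46 in scan batch 1 and -0.22 in scan batch 2, the same turn as in Stat5a. Its 4 probe sets disagreed. On 1428967_PM_at every KO array (7.00, 6.67 and 6.44) was above every WT array (5.99, 6.34, 6.22 and 5.95), with a difference of 0.61 (SE 0.13), while on 1426565_PM_at the difference was -0.23 (SE 0.16) and on 1452982_PM_at it was 0.29 (SE 0.13). Which transcripts of Igf1r each probe set reads was not examined. Irs1, a docking protein of the insulin and IGF receptors, read 8.15, 8.27, 7.70 and 7.96 in WT and 8.47, 7.83 and 8.01 in KO on its 1 probe set. KO replicate 1 was the highest array and the rest overlapped, with a difference of 0.16 (SE 0.10).

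**Figure D2:**
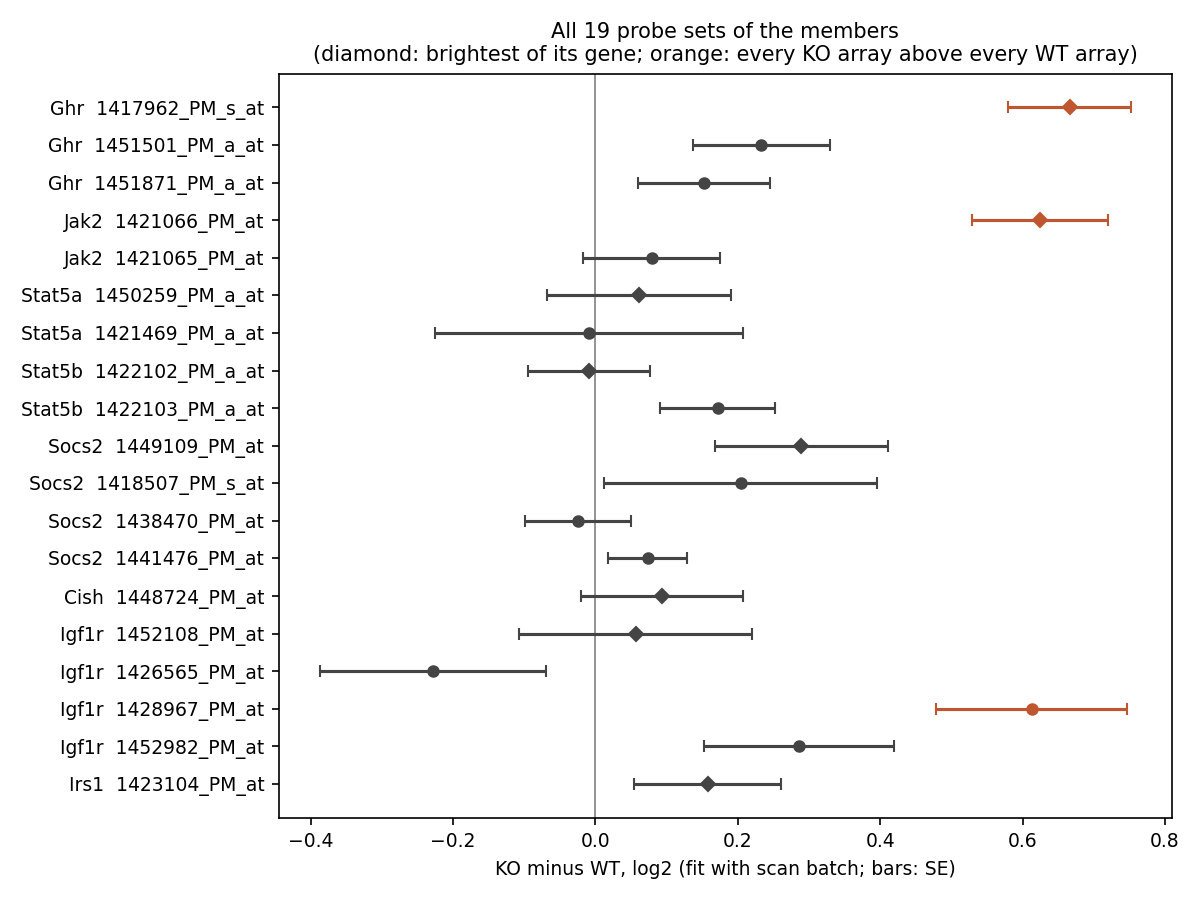
KO minus WT difference on the log2 scale with its SE for all 19 probe sets of the members, from a fit with scan batch over all probe sets; diamonds mark the brightest probe set of each gene and orange marks probe sets on which every KO array was above every WT array. The 3 orange probe sets belong to Ghr (0.67), Jak2 (0.62) and Igf1r (0.61), and the other probe sets of the same genes lie nearer to 0.

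Counted over the brightest probe sets, 7 of the 8 members had a higher mean in KO, beside 43.9% of all 12822 genes, and their median difference was 0.13 against -0.02 over all genes. The KO arrays lay above the WT arrays without overlap for 2 members (background 2.68%) and below them for 0 members, with a background of 5.91% in either direction. Over the 19 probe sets the KO arrays were above for 3, beside 2.4% of all single-gene probe sets. Over all genes, 0 (0%) passed an adjusted p of 0.05 in limma, and 1462 or 11.4% had an unadjusted p under 0.05. Since the members were proposed from this contrast, nothing is read from these shares. With KO replicate 1 left out, scan batch 2 alone sets the estimate, and 4 members, Ghr, Jak2, Socs2 and Irs1, had a higher mean in KO. That array was the highest of the 7 for 6 of the 8 members, beside 11.3% of all genes. The choice of members partly fixed that a KO array would be highest, so nothing is read from that share either.

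**Figure D3:**
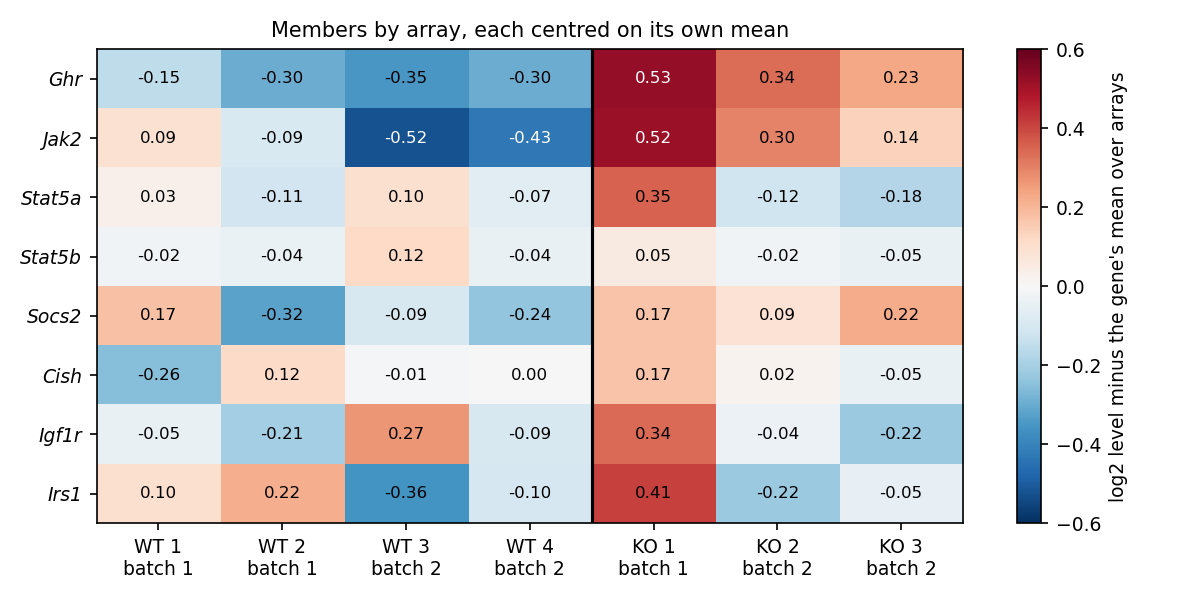
Log2 level of each member in each array minus the gene's own mean over the 7 arrays (colour and printed value), with the scan batch of each array and a line between WT and KO. Ghr is negative in all 4 WT arrays and positive in all 3 KO arrays, whereas Stat5a and Igf1r are high in KO replicate 1 and WT replicate 3.

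Whether receptor, kinase and targets vary together was described over the 7 arrays, with no p because this question came with the choice of members. The 7 arrays fell in the same order for Ghr and Jak2, from WT replicate 3 as the lowest to KO replicate 1 as the highest. Since the values of Ghr form separate clusters by genotype, correlations were taken on what was left after genotype and scan batch were removed. Pearson's r between Ghr and Jak2 was then 0.40 (Spearman's rho 0.18, n = 7 arrays), and 26.6% of all genes had at least that r with Ghr. It ranged from 0.22 without WT replicate 2 to 0.99 without KO replicate 1. The residuals of all 7 arrays have only 4 degrees of freedom. Without KO replicate 1, every remaining group of 1 genotype and 1 scan batch holds 2 arrays, whose residuals mirror each other. The 0.99 thus rests on few independent values. For Ghr the r was 0.34 with Socs2, -0.17 with Cish, -0.04 with Irs1 and 0.31 with Stat5b. All 4 of these took both signs with 1 array left out in turn, and Socs2 with Ghr was at -0.87 without WT replicate 2.

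Of the 28 pairs of members, Stat5a and Igf1r had the highest Pearson's r with genotype and scan batch removed. It was 0.97 (rho 0.82), a value that 0.491% of all genes reached with Stat5a, and with 1 array left out it stayed between 0.95 and 0.99. Both were high in KO replicate 1 and WT replicate 3. Stat5b had an r of 0.93 with Igf1r and 0.85 with Stat5a (rho 0.79 and 0.54). The last 2 pairs were not alike on the mean of all probe sets of each gene, where r was -0.04 and -0.28, while Stat5a with Igf1r was at 0.88. For Stat5b that mean takes in the dim probe set that read under the filter level. Ghr had an r of 0.67 with Stat5a and 0.61 with Igf1r, values that 11.8% and 14.9% of all genes reached. Socs2 and Cish, the feedback inhibitors, had the lowest r of the 28 pairs, at -0.90, and 97.2% of all genes had at least that r with Socs2. For Jak2 the r was 0.40 with Socs2, -0.30 with Igf1r and -0.34 with Stat5a. It was -0.44 with Stat5b, -0.44 with Irs1 and -0.67 with Cish. All these points share arrays, amplification and scan batch.

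Outside the axis, the 5 named genes whose level was most like that of Ghr over the 7 arrays were Fez2, Sptssa, Ifih1, Tlr3 and Pi4k2b. Their Pearson's r with Ghr, genotype included, was 0.96 to 0.98. Fez2 read 6.68, 6.68, 6.55 and 6.62 in WT and 7.29, 7.00 and 7.02 in KO. Ifih1 and Tlr3 encode sensors of double-stranded RNA, Sptssa a small subunit of the enzyme that begins sphingolipid synthesis, and Pi4k2b a lipid kinase. For all 5 every KO array lay above every WT array, which the choice by likeness to Ghr largely fixed. With genotype and scan batch removed the r with Ghr fell to 0.17 for Sptssa and was 0.74 for Tlr3, 0.56 for Fez2, 0.52 for Pi4k2b and 0.33 for Ifih1.

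Scan batch is a contrast that did not enter the choice of members. Jak2 and Irs1 read lower in scan batch 2, by -0.41 (SE 0.09) and -0.45 (SE 0.10), and neither passed in limma (adjusted p = 0.229 for both). At an unadjusted p under 0.05 these were 2 of 8 members, beside 1705 genes or 13.3%, and 0 genes (0%) passed after adjustment. The batch difference of Ghr was -0.16 (SE 0.09), and those of the other 5 members were between -0.17 and 0.01. The KO minus WT difference turned sign between scan batches for 4 members, Stat5a, Stat5b, Cish and Igf1r. The interaction of genotype and batch was -0.56 (SE 0.17) for Stat5a and -0.68 (SE 0.24) for Igf1r, with limma adjusted p of 0.344 and 0.359. These were the 2 members with an unadjusted p under 0.05, beside 1614 genes or 12.6%. After adjustment 1 gene of 12822 (0.0078%) was called, the alpha-defensin Defa31, and no member was.

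**Figure D4:**
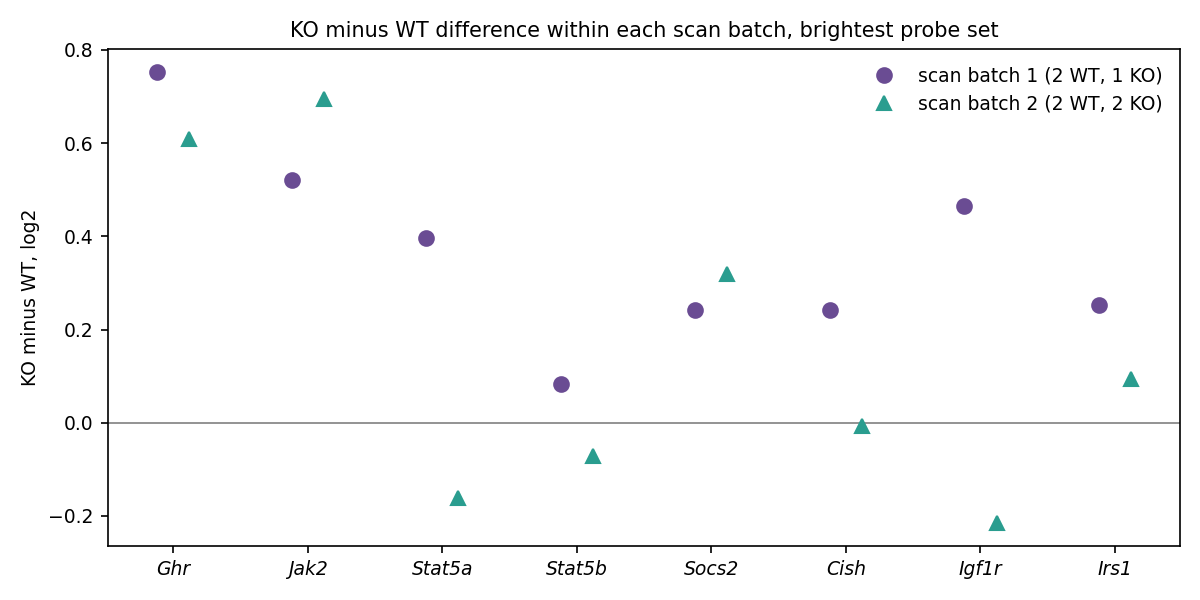
KO minus WT difference in log2 level within scan batch 1 (circles, 2 WT arrays and 1 KO array) and scan batch 2 (triangles, 2 of each) for the brightest probe set of each member. Ghr (0.75 and 0.61), Jak2 (0.52 and 0.69), Socs2 (0.24 and 0.32) and Irs1 (0.25 and 0.09) are above 0 in both batches, and Stat5a and Igf1r change sign.

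The wider pathway was read from 6 lists of other genes, 126 in all, of which 96 were tested. In limma 0 of the 96 passed an adjusted p of 0.05 (smallest 0.329). At an unadjusted p under 0.05 there were 8 higher and 8 lower in KO, 16.7% of the 96 beside 11.4% of all genes, and the arrays did not overlap for 4 higher and 5 lower, 9.38% beside 5.91%. Of the 96, 31 had a positive difference and 65 a negative one, with a median of -0.05 against -0.02 over all genes.

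A list of cytokine receptors, not all of which use Jak2, and the ligands stood near 0. Of 13 tested genes 4 had a positive difference and 9 a negative one, with a median of -0.04. In limma 1 had an unadjusted p under 0.05, 7.69% beside 11.4% of all genes. That was Il13ra1, a receptor chain for interleukin 13, which differed by 0.31 (SE 0.12; limma adjusted p = 0.417). It was at 0.06 in scan batch 1 and 0.47 in scan batch 2, at 0.20 without WT replicate 4, and at 0.12 with the Gapdh 3' to 5' difference, a measure of RNA quality, as a covariate. Il10rb, a shared chain of interleukin 10 and 22 receptors, differed by 0.18 (SE 0.09), the erythropoietin receptor Epor by -0.11 (SE 0.06) and the leptin receptor Lepr by -0.12 (SE 0.07). In WT the mean was 6.34 for Il13ra1, 6.31 for Epor and 5.76 for Lepr, near the array medians of 5.955 to 5.995 over all probe sets. Prolactin (Prl) lay below the level filter. Among the other kinases and STATs, 3 of 6 were higher and 3 lower, with a median of -0.01. Stat2, which relays interferon signals, differed by 0.41 (SE 0.17; limma adjusted p = 0.434), and WT replicate 1, at 8.78, lay inside the KO range of 8.44 to 8.94. On its probe set of largest variance the Stat2 difference was -0.16. Jak3 differed by -0.29 (SE 0.18), or -0.03 with that covariate, Stat6 by -0.16 (SE 0.10) and Stat3 by 0.07 (SE 0.07).

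Regulators of the pathway were evenly split, with 10 of 20 tested genes higher and 10 lower and a median of -0.00077. Stam, an adaptor that binds JAK kinases and sorts receptors on endosomes, differed by 0.28 (SE 0.06; limma adjusted p = 0.353), reading 5.98, 5.95, 5.76 and 5.61 in WT and 6.25, 6.01 and 5.93 in KO. KO replicate 3 lay below WT replicates 1 and 2, and the levels were near the array medians of 5.955 to 5.995 over all probe sets. Socs7 differed by 0.21 (SE 0.09), and by -0.01 with the mean of all its probe sets. Socs4 differed by 0.24 (SE 0.13), and was at -0.13 in scan batch 1 and 0.49 in scan batch 2. The phosphatase Ptpn2, which removes phosphate from JAK kinases and STATs, differed by 0.34 (SE 0.15), and was at -0.09 in scan batch 1 and 0.62 in scan batch 2.

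Genes that STAT5 is known to switch on or off in other tissues gave 4 positive and 12 negative differences among 16 tested, with a median of -0.09 against -0.02 over all genes, of which 43.9% were positive, and 0 passed. The list holds genes that STAT5 raises and genes that it lowers. At an unadjusted p under 0.05 in limma there were 3, all lower, 18.75% of the 16 beside 11.4% of all genes. Bcl2l1, an inhibitor of apoptosis, read 10.35, 10.41, 10.77 and 10.66 in WT and 10.14, 10.40 and 10.31 in KO, with a difference of -0.31 (SE 0.07; limma adjusted p = 0.329). The D-type cyclin Ccnd2 had all KO arrays (11.74, 11.83 and 11.75) below all WT arrays (11.83 to 12.12), KO replicate 2 only just, with a difference of -0.20 (SE 0.05; limma adjusted p = 0.388). Bcl6, a repressor that STAT5 is known to lower, differed by -0.26 (SE 0.11), and by 0.70 on its probe set of largest variance and 0.22 with the mean of all. Id1, an inhibitor of differentiation factors, went the other way at 0.18 (SE 0.09). With the mean of all probe sets of each gene, the difference was -0.16 (SE 0.07) for Bcl2l1 and -0.10 (SE 0.06) for Ccnd2.

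IGF and insulin ligands, binding proteins and receptors gave 2 positive and 9 negative differences among 11 tested, with a median of -0.12, beside 43.9% positive over all genes. None of the 11 passed in limma (0 calls), and 1 had an unadjusted p under 0.05, 9.09% beside 11.4% of all genes. Stc2, a secreted inhibitor of the protease that frees IGF from its binding protein, read 7.12, 7.12, 7.40 and 7.46 in WT and 7.01, 6.97 and 6.84 in KO. The groups did not overlap, and the difference was -0.36 (SE 0.10; limma adjusted p = 0.388), or -0.11 with the mean of all its probe sets. Igf2 differed by -0.17 (SE 0.09) and Igfals, which holds IGF in the circulation, by -0.12 (SE 0.07). The WT mean was 6.41 for Igf2 and 6.17 for Igfals, near the array medians of 5.955 to 5.995 over all probe sets. Genes of such low signal are thus among the 9 with a negative difference. The insulin receptor Insr differed by 0.16 (SE 0.08), and by -0.15 on its probe set of largest variance.

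Downstream of the docking proteins, single genes stood apart in both directions. Of 32 tested genes 9 were higher and 23 lower in KO, with a median of -0.05, beside 43.9% positive over all genes. At an unadjusted p under 0.05 in limma there were 4 of each, 25% of the 32 beside 11.4% of all genes, while 0 passed. The arrays did not overlap for 3 higher and 3 lower, 18.75% beside 5.91%. Since the lists were chosen with earlier results known, nothing is read from these shares. Rictor, a core subunit of mTOR complex 2, read 7.45, 7.59, 7.25 and 7.29 in WT and 8.01, 7.89 and 7.62 in KO, with a difference of 0.49 (SE 0.10; limma adjusted p = 0.329). KO replicate 3 was just above WT replicate 2, and with the mean of all probe sets the difference was 0.13. Phlpp1, a phosphatase that switches AKT off, differed by 0.44 (SE 0.12), with every KO array between 7.47 and 7.53 and WT at 6.79 to 7.38. Its difference was 0.14 in scan batch 1 and 0.64 in scan batch 2, and 0.28 with the Gapdh covariate. Grb10, an adaptor that inhibits the insulin and IGF receptors, had the largest difference, -0.75 (SE 0.20; limma adjusted p = 0.388), at 7.17, 6.64, 6.96 and 7.31 in WT and 6.42, 6.52 and 5.88 in KO. With the mean of its probe sets it was -0.43, and with the Gapdh covariate -0.45. Akt2 differed by -0.24 (SE 0.06). Akt1 (-0.34, SE 0.09) and Pik3ca (0.37, SE 0.10), named here after their values were seen, also had groups that did not overlap.

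**Figure D5:**
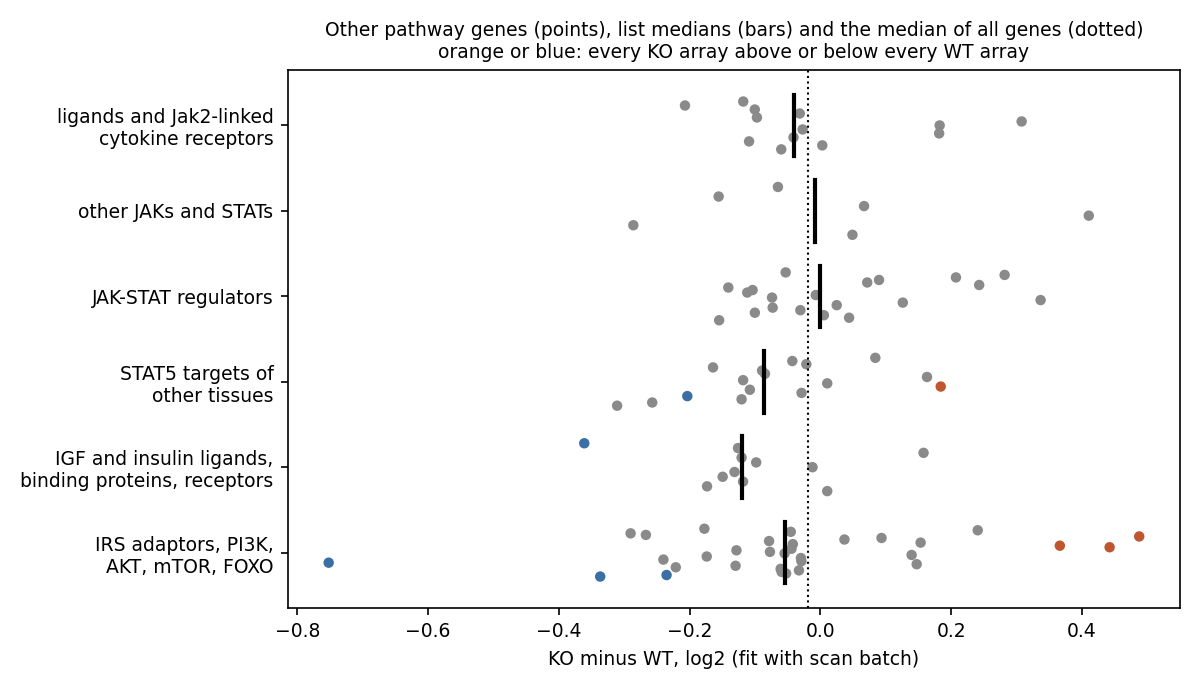
KO minus WT difference in log2 level of the 96 tested genes in 6 pathway lists (points; a gene in 2 lists appears in both), with list medians (bars) and the median of all 12822 genes (dotted line, -0.02); colour marks genes whose KO arrays were all above (orange) or all below (blue) the WT arrays. The points spread to both sides of 0 in every list, and Grb10 is the lowest at -0.75.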

How the data were processed

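Each deposited value is a log2 level. The authors used RMA, a robust multi-array average, per the submitters' processing notes, which give no version. Of 45141 probe sets in the table, 104 were controls; the platform annotation gave 1 symbol for 28898, several for 551 and none for the rest, and 28689 matched RefSeq gene numbers. For each gene the probe set with the highest mean was used. limma 3.58.1 in R 4.3.3 (lmFit, eBayes with trend) compared KO with WT and scan batch 2 with 1 in 1 model, two-sided, with Benjamini-Hochberg adjustment over 12822 genes and 4 residual degrees of freedom; the interaction was a separate fit. SEs in the text come from that fit, and those of a gene's dimmer probe sets from the same model run on every probe set. The number of arrays limits precision: the median SE was 0.093. Members and lists were chosen with earlier results of these data known. Named pathway genes are the 4 of smallest p in each list; Akt1, Pik3ca, Prl, Defa31 and marker genes fall outside that rule. Tried were 20 alternatives to model, probe set, filter, scaling and arrays. Of the 19 member probe sets, 2 held tied values.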

Additional observations from a re-analysis of the deposited data

Results flagged for a closer look

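Stat5b in WT replicate 3 stood apart from the other WT arrays on its brightest probe set. It read 8.29 against 8.13 to 8.15, and the gap took 0.867 of the range of the 4 arrays, above the critical value of Dixon's test. This was 1 of 19 probe sets checked, and chance gives such a gap in about 1 group in 20.

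The KO minus WT difference of Stat5a went opposite ways in the scan batches. In batch 1 the KO array (8.98) was above both WT arrays (8.65 and 8.51), and in batch 2 both KO arrays (8.50 and 8.45) were below both WT arrays (8.72 and 8.55). The difference in batch 2 less that in batch 1 was -0.56 (SE 0.17), with an adjusted p of 0.344 in limma.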

How the results depend on the processing

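Ghr and Jak2 kept a positive difference in all 20 alternatives, at 0.35 to 0.75 and 0.35 to 0.72; both lowest values, 0.351 and 0.352, came with the mean of all probe sets. Socs2 was positive in all 19 that tested it, at 0.14 to 0.38. Its signal was low, and the alternative without the lowest 50% of genes left it out. The count of 7 members with a higher mean in KO became 4 within scan batch 2 alone and ranged from 4 to 8 with 1 array left out, the lowest without KO replicate 1. Stat5a, Stat5b, Cish and Igf1r took both signs. The count of 0 genes past the threshold became 1370 with array weights, 977 higher and 393 lower. KO replicate 1 had the lowest weight (0.297) and KO replicate 2 the highest (3.04), and the cause was not tested. With 1 array left out the count was 0 to 2, with 2 without WT replicate 2 and 2 without WT replicate 4. With Eif2s3y as a covariate, chosen after seeing the data in place of Ddx3y, which no probe set names, the Ghr difference was 0.68 and that of Jak2 0.63; with the Gapdh 3' to 5' difference they were 0.75 and 0.63, while Stat5a moved from 0.06 to 0.27 and Igf1r from 0.06 to 0.31. No paired analysis was possible because the labels give no replicate numbers that the groups share. The replicate numbers used here only count arrays within each genotype and pair no WT array with a KO array.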
